A study of Homo sapiens with 9 samples.

Results

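Proteasome subunit genes were taken as every gene symbol of the form PSMA, PSMB, PSMC, PSMD, PSME, PSMF or PSMG followed by a number, which gave 48 of the 18970 genes in the count tables. The longer symbol PSMC3IP, a gene of meiotic recombination, was left out. The 48 genes comprised 8 alpha ring and 7 constitutive beta ring genes of the 20S core, 4 beta genes of the immune or thymic forms, 6 ATPases and 11 non-ATPase subunits of the 19S regulatory particle, 3 chaperones of 19S assembly, 4 chaperones of 20S assembly and 5 activators or inhibitors.

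The proteasome is the cell's main machine for breaking down proteins marked with ubiquitin. Its 20S core is a barrel of alpha rings, which gate the entrance, and beta rings, which hold the proteolytic sites, and the 19S particle binds ubiquitin chains, unfolds the substrate and feeds it into the core. The degrader used here works through it: dTAGV-1 brings a tagged protein to the VHL ubiquitin ligase, after which the proteasome destroys it.

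Metabolic labelling of RNA (SLAM-seq) was performed in cranial neural crest cells (CNCCs). These were differentiated from the human embryonic stem cell line H9. In every sample, controls included, both alleles of SOX9, a transcription factor of neural crest and cartilage, carried an FKBP12-F36V, mNeonGreen and V5 tag. The 3 groups were CNCCs given DMSO (0h), 500 nM dTAGV-1 for 3 h or 500 nM dTAGV-1 for 24 h, with 3 samples in each. All 9 samples received 100 uM 4-thiouridine for the last 2 h, so that transcripts made in that window carry T>C conversions in their reads. The samples came from 3 cultures, S9CC13_R6, S9CC47_R5 and S9CC47_R6, each sampled once at every time. They represent 2 edited clones, S9CC13 and S9CC47, and 2 differentiation batches, R5 and R6. In the main fit p-values measure the spread between samples of these cultures that batch and an estimated source of variation leave unexplained. That fit has no term for the pairing by culture. No sample without 4-thiouridine was analysed here, and background conversions were not subtracted.

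The libraries held 16955633 to 28782678 total reads and 3130673 to 5475800 T>C reads. Of the 10 neural crest markers checked, 8 averaged at least 1 count per 1000000 reads of the library (CPM), and SOX10 and FOXD3 were near 0. Among the 6 pluripotency markers POU5F1 had 1 read in all 9 samples, while LIN28A, a gene of stem and progenitor cells, averaged 294 CPM. DPPA4, also on that list, averaged 37.9 CPM. Of 6 neural progenitor markers NES averaged 418 CPM and DCX 12.7 CPM, and the others were at or near 0. SOX9 RNA, which is not the target of the degrader, stood at 736, 775 and 783 CPM in the controls. It was 1415, 1141 and 1472 CPM in the 3h samples and 1862, 1614 and 1785 CPM in the 24h samples. All treated samples were above all controls. SOX9 T>C reads rose by a log2 fold change of 0.77 ± 0.08 (SE) at 3h and 1.15 ± 0.08 at 24h, with DESeq2 adjusted p of 7.24e-18 and 7.28e-39.

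Of the 48 proteasome genes, 44 passed the filter of 1 CPM in at least 3 samples in both tables. The other four were at or near 0. PSMA8, an alpha subunit of the testis, and PSMB9, a catalytic subunit of the immunoproteasome, had no read in any sample. PSMB8, another catalytic subunit of the immunoproteasome, had 2 reads in 1 sample and 1 read in another, and PSMB11, the beta subunit of the thymus, had 1 read in all. A count of 0 allows a level of up to 0.104 to 0.177 CPM, depending on the library (3 reads of the total, counting error only). PSMB10, the remaining catalytic subunit of the immunoproteasome, was the exception among these 4 beta genes and averaged 22.0 CPM.

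**Figure D1:**
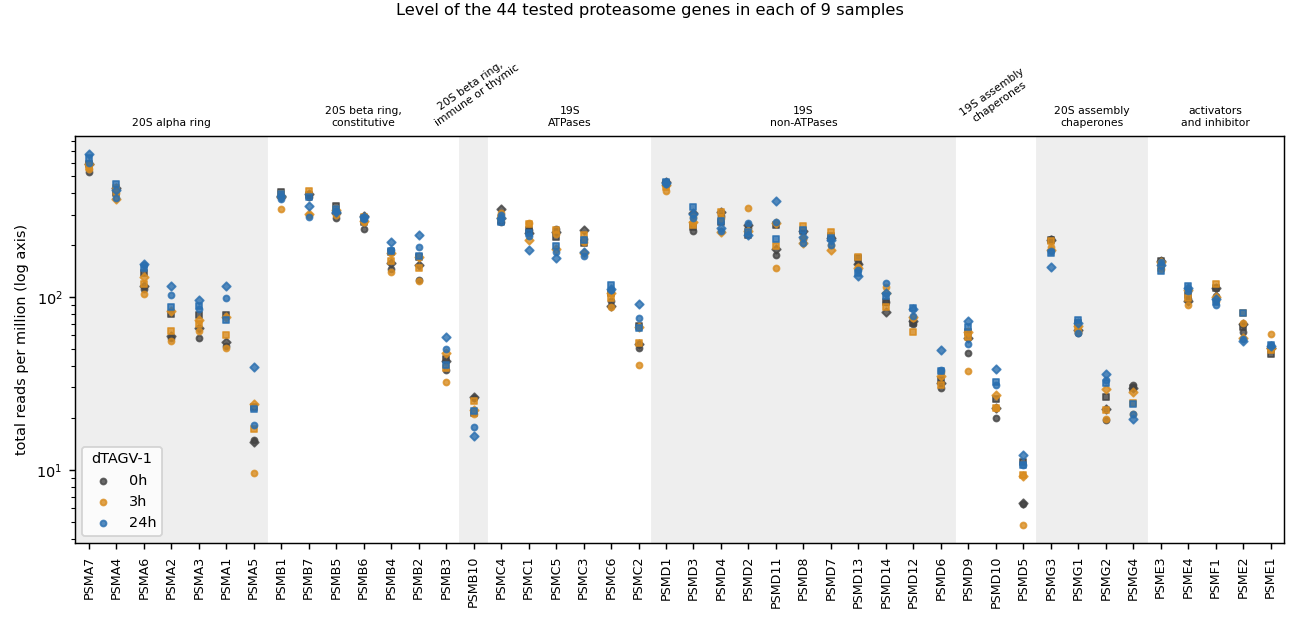
CPM in total reads on a log axis for the 44 tested proteasome genes, ordered by functional group, with 1 point per sample coloured by time of dTAGV-1 and shaped by culture. PSMA7 lies highest at a mean of 591 CPM and PSMD5 lowest at 9.0 CPM.

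The tested genes were abundant as a group. Their median level ranked at the 88.4th percentile of all genes tested in total reads, and 41 of the 44 lay above the median gene. Together the 48 genes took 6968 to 7742 CPM of a library. Each read comes from the 3′ end of 1 transcript, so levels were compared without a length correction.

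Levels of subunits that occupy the same particle in equal number were unequal at the RNA level. Among the alpha ring genes PSMA7 was highest at 591 ± 42.1 CPM (SD, n = 9 samples) and PSMA5 lowest at 20.4 ± 8.46 CPM, a 29.0-fold range over the 14 tested alpha and constitutive beta genes. Among the beta genes PSMB1 averaged 380 ± 23.8 CPM and PSMB3 43.6 ± 7.72 CPM. The 6 ATPases, which form the motor of the 19S base, were closer together, from PSMC4 at 289 ± 17.1 CPM to PSMC2 at 63.0 ± 15.0 CPM. The 19S non-ATPases ran from PSMD1, a scaffold of the base, at 448 ± 17.7 CPM to PSMD6 at 35.8 ± 5.89 CPM. The chaperones of 19S assembly were lower, with PSMD9 at 57.8 ± 10.7 CPM and PSMD5 at 9.0 ± 2.54 CPM. Of the chaperones that build the 20S rings, PSMG3 averaged 195 ± 22.1 CPM and PSMG4 25.5 ± 4.40 CPM. Among the activators PSME3, which caps the nuclear 20S core, averaged 154 ± 7.58 CPM and PSME1, a subunit of the interferon-induced cap, 52.0 ± 3.89 CPM. The order was similar in all samples, with a Spearman rho of at least 0.94 between any 2 samples over the 44 genes, which are not independent replicates.

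The 3 proteolytic subunits of the constitutive core were all far above their immune counterparts. PSMB5 averaged 313 ± 14.8 CPM, PSMB6 279 ± 15.2 CPM and PSMB7 353 ± 46.1 CPM. PSMB7 exceeded PSMB10, its immune counterpart, by 13.6- to 21.2-fold in the 9 samples.

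The T>C share, the percentage of a gene's reads that carry conversions, differed 15.9-fold between proteasome genes. PSME1 had the lowest mean share, 4.05% ± 1.03 (SD, n = 9 samples), followed by PSMB10 at 5.94% ± 1.76 and PSME2, the partner of PSME1, at 6.45% ± 1.24. PSMG1, a chaperone that starts the alpha ring, had the highest, 64.3% ± 4.28, followed by the alpha subunit PSMA4 at 45.4% ± 3.82. PSMG2, which works as a dimer with PSMG1, came next among genes above 10 CPM at 37.3% ± 4.01. The shares of PSME1 lay between 2.25% and 5.39% and those of PSMG1 between 58.2% and 70.1%, so these genes did not overlap in any sample. For the lowest and highest of these values the Wilson 95% confidence intervals were 1.55 to 3.25% and 67.6 to 72.4%, which cover counting error only.

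**Figure D2:**
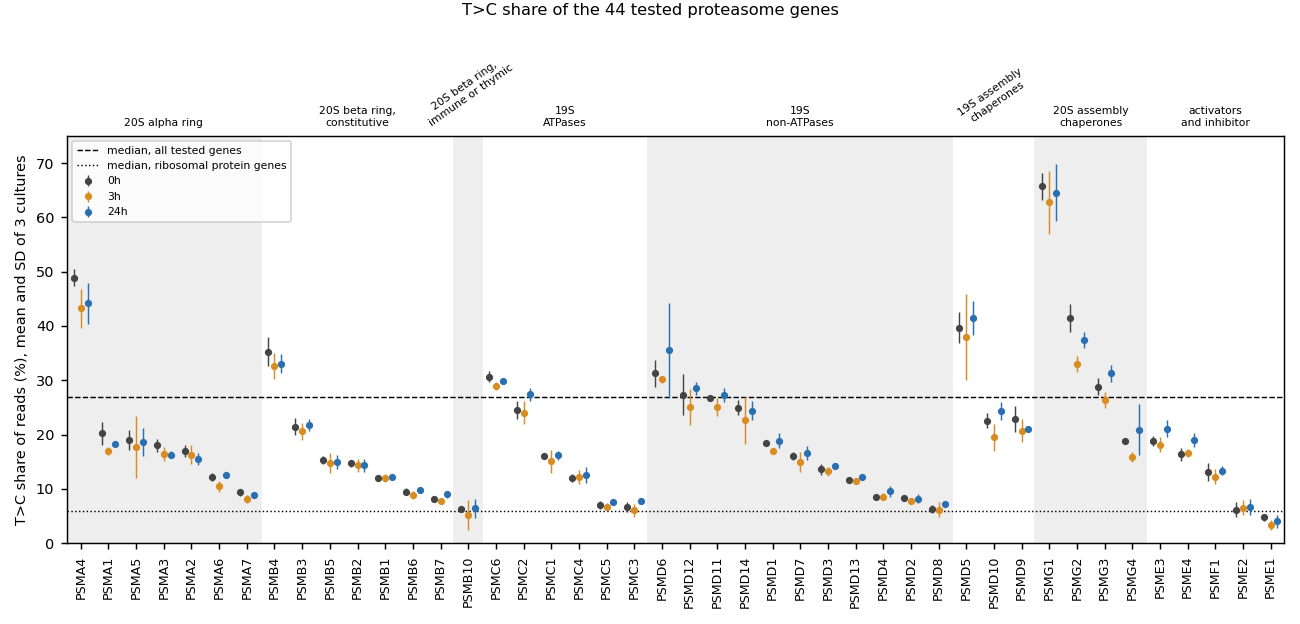
T>C share of reads in percent for the 44 tested proteasome genes, as mean and SD of the 3 cultures at each time of dTAGV-1, ordered by functional group. Most genes lie between the median of ribosomal protein genes (dotted, 5.90%) and the median of all tested genes (dashed, 26.8%), and PSMG1 stands highest.

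Most proteasome transcripts had a low share for their library. The median over the 44 genes was 16.6%, against 26.8% over all tested genes and 5.90% over 81 ribosomal protein genes, and 35 of the 44 lay below the median gene. The 20S assembly chaperones had the highest group median, 33.0%, and the activators and inhibitor the lowest of the groups with several tested genes, 12.9%. Shares also depend on how many T bases a read covers. Across the 44 genes the share correlated with the T content of the last 250 bases of the transcript at a Pearson r of 0.46, and across 11708 genes at 0.37. Both are descriptions over genes of the same libraries. Among the 16 genes within 3 points of the median T content of 28.6%, shares ran from 4.05% to 64.3%. The T bases that the reads covered were not measured, and the part of T content in the shares was not tested.

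The shares of the proteasome genes were lower after 3 h in every culture and had no common direction after 24 h. The control samples had a median over genes of 16.9% ± 0.55 (SD, n = 3 samples). It was 15.5% ± 1.18 after 3 h of dTAGV-1 and 16.4% ± 0.10 after 24 h. At 3h this median was lower than at 0h in all 3 cultures, with a change of -1.45 ± 0.64 percentage points (SD, n = 3 cultures), and the median over all tested genes was lower in all 3 as well, with a change of -2.26 ± 1.71. Only 4 of the 44 genes had a higher mean share at 3h. After 24 h the direction depended on the summary. The median over genes was lower than at 0h in all 3 cultures, with a change of -0.52 ± 0.45 points, but 28 of the 44 genes had a higher mean share, and the share of the summed reads of all 48 genes was higher in 2 of 3 cultures. That summed share was 16.9% ± 0.33 in the controls and 17.4% ± 0.78 in the 24h samples (SD, n = 3 samples). The median over all tested genes was higher in all 3 cultures, by 1.24 ± 0.80 points. These shares were not tested. PSMD6 had 1 library apart from the rest, with a share of 45.6% in S9CC47_R6 at 24h and at most 33.2% in the other samples.

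In T>C reads no proteasome gene passed DESeq2 at an adjusted p under 0.1 in any contrast. Of 12037 genes tested, 1.79% passed for 3h over 0h, 4.98% for 24h over 0h and 1.14% for 24h over 3h. At an unadjusted p under 0.05 the numbers of proteasome genes were 1, 6 and 5 of 44, against 7.33%, 13.6% and 8.14% of all genes. edgeR called 0, 1 and 0. With the culture as a replicate block DESeq2 called 0, 2 and 2. Over all genes the shares were 2.39%, 8.04% and 2.22% for edgeR and 1.43%, 6.00% and 4.40% for the block. The gene called by edgeR was the ATPase PSMC2, which the block called together with PSMG3 at 24h against 0h and with PSMA1 at 24h against 3h. These were named after their values were seen. In the fit without the block PSMC2 had a log2 fold change of 0.38 at 24h against 0h. The median log2 fold changes over the 44 genes were 0.0015, -0.022 and 0.0016, beside -0.011, 0.0015 and 0.010 over all genes. At 24h the largest values were -0.63 for PSMB10, which had 13.3 to 38.8 normalized T>C reads in these 6 samples, and 0.47 ± 0.21 (SE) for PSMD10, with an adjusted p of 0.256.

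In total reads at 3h against 0h no proteasome gene passed either, where 1.89% of 11710 genes did. At an unadjusted p under 0.05 there were 3 of 44, against 8.22% of all genes, and edgeR called 0. Changes ran from -0.31 for PSMG4 (adjusted p = 0.345) to 0.15 for PSMD14. Without the culture S9CC47_R5, DESeq2 called 1, PSMB7, beside 1.32% of all genes.

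At 24h against 0h, 15 of the 44 proteasome genes (34.1%) passed DESeq2 at an adjusted p under 0.1 in total reads, beside 15.0% of all 11710 genes. Of these, 8 rose (18.2%, background 7.11%) and 7 fell (15.9%, background 7.85%). The genes that rose included 4 of the 7 tested alpha ring genes, and those that fell included 2 of the 4 chaperones of 20S assembly. The changes of these 15 were small, with a median size of 0.31 on the log2 scale. Over all 44 genes the median size was 0.167, beside 0.160 over all genes tested. The background rates are not matched for level, and the 44 genes ranked at a median percentile of 88.4. In simulated total reads DESeq2 made more false calls than the threshold of 0.1 allows and edgeR did not. The simulated samples were independent, with the same relative spread for every gene and no culture effect. False calls in these paired cultures were therefore not measured. Here edgeR called 16 of the 44, all 15 among them, beside 17.2% of all genes. Apart from the model, normalized reads (counts divided by the DESeq2 size factor of the library) of the 3 samples at 24h lay wholly above or below the 3 at 0h for 17 of the 44 genes (38.6%), against 28.7% of all genes.

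The calls depended on which cultures were used. With S9CC13_R6 or S9CC47_R6 left out, DESeq2 called none of the 44, and with S9CC47_R5 left out it called 8, of which 7 were among the 15. Over all genes the same fits called 1.39%, 0.547% and 6.73%, against 15.0% with all cultures, so calls were lost across the whole table. Those fits to 6 samples keep 1 or 2 residual degrees of freedom. Each fits time and a surrogate variable, an unlabelled source of variation estimated from the counts. Batch is fitted too, except without S9CC47_R5, where only batch R6 remains and 2 degrees of freedom are left. Of the 15 genes, 5 changed sign without S9CC13_R6 and 1 without S9CC47_R6. Without the surrogate variable, a choice made after seeing the data, the same 3 fits called 0, 0 and 15 genes, beside 2.60%, 3.25% and 11.2% of all genes. Of the 15 called without S9CC47_R5, 12 were among the 15 of the full fit. All 15 genes of the full fit kept their sign in each.

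Cell type markers moved over the same time. The summed level of the 10 neural crest markers, SOX9 included, was 3486 to 3614 CPM at 0h and 4770 to 5134 CPM at 24h, and that of 6 chondrocyte markers was 371 to 404 CPM and 201 to 261 CPM. Single genes carried most of both differences. SOX9 went from a mean of 764 to 1754 CPM, while NR2F1 stood at 1064 and 1056 CPM and NR2F2 at 479 and 486 CPM. TFAP2A went from 236 to 398 CPM, TFAP2B from 578 to 694 CPM and TWIST1 from 235 to 287 CPM. PAX3 went from 23.7 to 35.4 CPM and NGFR from 186 to 235 CPM. DESeq2 called 5 of the 8 tested crest markers higher in total reads and 0 lower, beside 7.11% and 7.85% of all genes. COL2A1 went from 320 to 182 CPM and COL9A1 from 35.2 to 21.4 CPM, while HAPLN1 stood at 34.2 and 34.5 CPM. Of the 3 tested chondrocyte markers DESeq2 called 2 lower and 0 higher in total reads. The summed level of 6 pluripotency markers was 350 to 415 CPM at 0h and 282 to 307 CPM at 24h. LIN28A went from 337 to 255 CPM and DPPA4 from 36.2 to 40.4 CPM. The sum of 6 neural progenitor markers was 386 to 447 CPM and 345 to 478 CPM. NES stood at 407 and 399 CPM and DCX at 14.7 and 8.94 CPM. With 2 markers tested in each of these lists, DESeq2 called 1 lower and 0 higher in each. The part of these cell type markers in the changes of the proteasome genes was not tested. In bulk samples fewer cells of a type and less RNA per cell cannot be told apart.

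Among the alpha ring genes PSMA2, a subunit of the outer ring (chr7:42916828-42932185, minus strand, GRCh38), had 1242, 1743 and 1332 normalized total reads at 0h in the cultures S9CC13_R6, S9CC47_R5 and S9CC47_R6, and 2181, 1879 and 2442 at 24h. All 3 samples at 24h exceeded all 3 at 0h. The log2 fold change was 0.46 ± 0.11 (SE) with an adjusted p of 6.12e-04. PSMA1 had 1124, 1713 and 1233 reads at 0h and 2092, 1591 and 2459 at 24h. It was higher in 2 of 3 cultures and slightly lower in S9CC47_R5, and its fold change was 0.42 ± 0.13 (adjusted p = 0.0122). PSMA3 had 1252, 1724 and 1480 reads at 0h and 1796, 1919 and 2026 at 24h, without overlap, for a fold change of 0.30 ± 0.10 (adjusted p = 0.0203). PSMA6 followed at 0.23 ± 0.08 (adjusted p = 0.0576), higher in all 3 cultures. The last exons of PSMA1, PSMA2, PSMA6 and, among the genes that fell, PSMB10 overlap another annotated transcript on the same strand, so reads there cannot be assigned with certainty. Reads may also be shared with pseudogenes, which are named after 17 of the 48 genes. Of the 15 called genes these are PSMA1, PSMA2, PSMA3, PSMA6, PSMB7, PSMD10, PSMD14 and PSMG3.

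Outside the ring, PSMD10, a chaperone of 19S assembly also known as gankyrin, had 431, 558 and 511 reads at 0h and 658, 695 and 814 at 24h. The groups did not overlap, and the fold change was 0.44 ± 0.12 (adjusted p = 0.00585). PSMG2 had 418, 575 and 503 reads at 0h and 698, 683 and 754 at 24h, again without overlap, for 0.40 ± 0.13 (adjusted p = 0.0205). The remaining genes that rose, named here after their values were seen, were PSMD14, the deubiquitinase of the 19S lid, at 0.27 ± 0.10 and the beta subunit PSMB2 at 0.24 ± 0.10.

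PSMG4, which pairs with PSMG3 in 20S assembly (chr6:3231403-3303373, plus strand), fell most. It had 671, 651 and 668 reads at 0h and 445, 520 and 417 at 24h, with no overlap, for a fold change of -0.56 ± 0.13 (adjusted p = 8.51e-04). PSMG3 had 4678, 4641 and 4764 reads at 0h and 3892, 3892 and 3149 at 24h, all lower, for -0.31 ± 0.08 (adjusted p = 0.00412). PSMC5, an ATPase of the base, had 5320, 4853 and 5331 reads at 0h and 3827, 4265 and 3556 at 24h, all lower, for -0.33 ± 0.09 (adjusted p = 0.00309). PSMB10 had 562, 467 and 593 reads at 0h and 375, 473 and 334 at 24h. These groups overlapped, with no decrease in S9CC47_R5, and the fold change was -0.42 ± 0.15 (adjusted p = 0.0518). PSMF1, an inhibitor of the core, had 2189, 2453 and 2515 reads at 0h and 1902, 2008 and 2062 at 24h, for -0.28 ± 0.10 (adjusted p = 0.0462). PSMB7 fell by 0.27 on the log2 scale (adjusted p = 0.083) and PSMD13, named after its value was seen, by 0.25 (adjusted p = 0.0389). With the culture as a replicate block PSMF1, PSMB7 and PSMD14 were not called, at -0.26, -0.27 and 0.23.

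**Figure D3:**
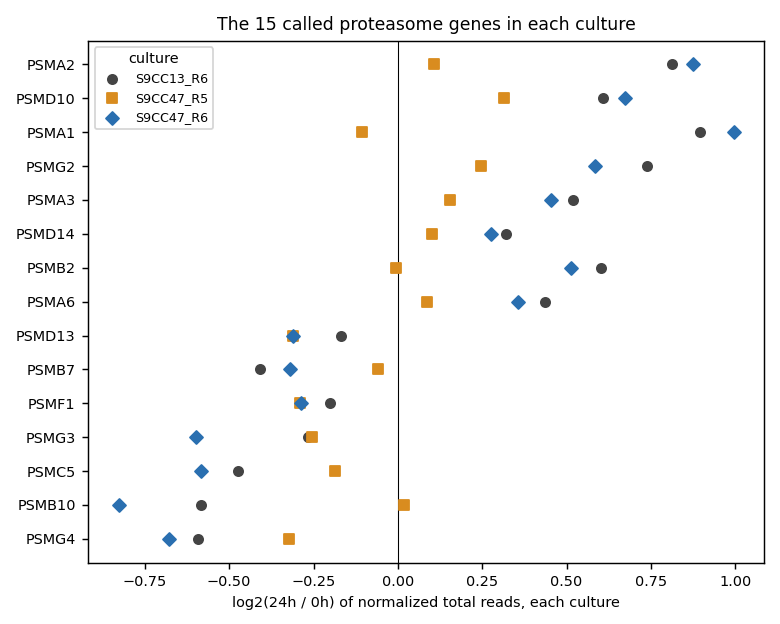
Log2 ratio of normalized total reads at 24h over 0h in each of the 3 cultures (symbols) for the 15 called proteasome genes. S9CC47_R5 lies nearest 0 for most genes, and PSMA1, PSMB2 and PSMB10 do not share 1 direction in all 3 cultures.

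All 15 genes had the same sign in T>C reads, where none passed the test. T>C reads are part of the total reads of the same libraries, and the 15 were chosen by total reads. The shared sign is therefore no separate support. The standard errors there were larger, with a median of 0.14 over the 44 genes against 0.10 in total reads.

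**Figure D4:**
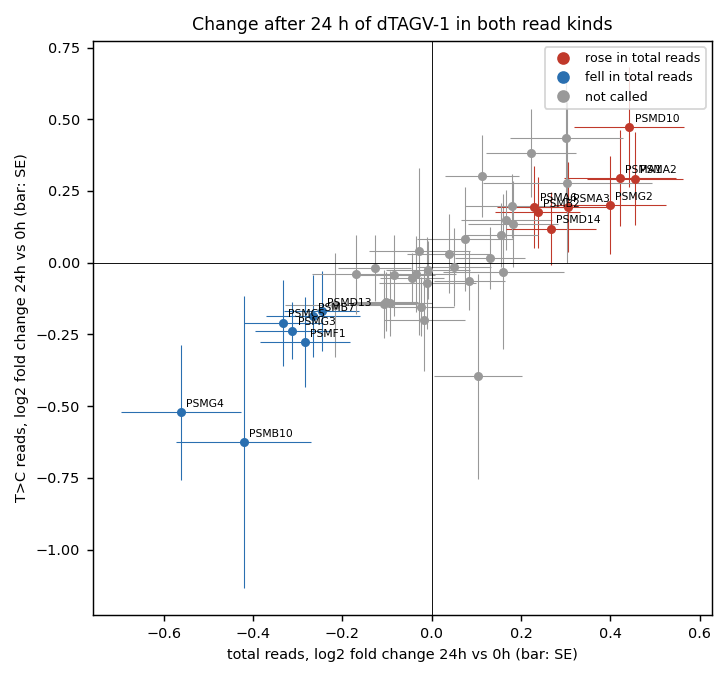
Log2 fold change at 24h against 0h in total reads (horizontal) and T>C reads (vertical) for the 44 tested proteasome genes, with SE bars and the 15 called genes in colour. The coloured points lie in the upper right and lower left of the plot, and T>C reads are part of the total reads.

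Base composition moved with these changes. The last 250 bases of the transcript had a GC content of 28.0 to 42.0% in the 8 genes that rose and 41.6 to 54.4% in the 7 that fell. Over the 44 genes the fitted change correlated with GC at a Pearson r of -0.67, beside -0.16 over 11708 genes. Within cultures r was -0.62 in S9CC13_R6, -0.28 in S9CC47_R5 and -0.71 in S9CC47_R6. At 3h against 0h the relation held no common sign, with 0.03, 0.67 and -0.70 in the same cultures. At 24h against 3h r was -0.58, -0.72 and -0.59 in them, beside -0.27, -0.30 and -0.27 over 11708 genes. After a correction of each library for GC, added after seeing the data, DESeq2 called 11 of the 44 genes, 8 higher and 3 lower, of which 10 were among the 15, beside 14.9% of all genes. PSMG4, PSMC5 and PSMG3 were the 3 lower genes. PSMB7 (-0.18), PSMB10 (-0.34), PSMD13 (-0.16), PSMD14 (0.21) and PSMF1 (-0.19) were no longer called, with these corrected log2 fold changes, each smaller than before and of the same sign, and PSMD3, a subunit of the 19S lid, was added. The part of base composition in the changes was not tested further.

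**Figure D5:**
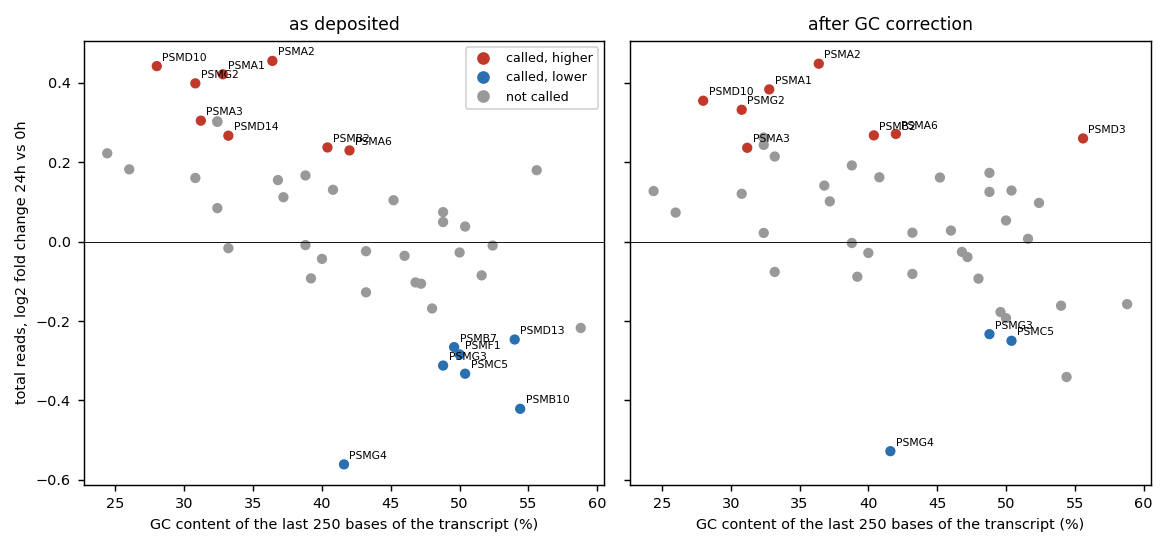
Log2 fold change in total reads at 24h against 0h plotted against the GC content of the last 250 bases of the transcript, without (left) and with (right) GC correction, for the 44 tested proteasome genes. Red and blue points are called higher and lower, 15 without the correction and 11 with it.

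At 24h against 3h, 2 of the 44 genes rose in total reads and none fell, beside 5.39% of all genes called and 2.51% called higher. PSMA2 had 1217, 1417 and 1742 reads at 3h, below all 3 samples at 24h, for a fold change of 0.37 ± 0.11 (adjusted p = 0.0383). PSMA6 had 2284, 2636 and 2739 reads at 3h and 3257, 3160 and 3297 at 24h, for 0.25 ± 0.09 (adjusted p = 0.0959). With the culture as a replicate block, 11 genes were called, PSMA2 and PSMA6 among them, beside 13.2% of all genes. With 1 culture left out a single gene was called each time, PSMD3 without S9CC13_R6, PSMA1 without S9CC47_R5 and PSMA2 without S9CC47_R6. Over all genes these fits called 0.786%, 1.44% and 1.63%. The change of PSMA2 was -0.0056 without S9CC13_R6.

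A direct test of T>C against unconverted reads asked whether the share itself changed. edgeR called none of the 44 genes at an adjusted p under 0.1, beside 0.273% of 11361 genes for 3h over 0h, 0% for 24h over 0h and 0.968% for 24h over 3h. At an unadjusted p under 0.05 the counts were 1, 7 and 8 genes, against 6.13%, 7.04% and 11.5% of all genes. DESeq2 on the same columns called 0 in each. In simulated reads this test missed most changes of share under 2-fold, so changes of the size seen here may go undetected. With the culture as a replicate block, edgeR called PSMA4 at 24h against 0h, beside 0.114% of all genes, and none otherwise. The lowest unadjusted p at 24h against 0h belonged to PSMA4, with a log2 change of share of -0.40 (adjusted p = 0.444). Its share was 48.9% ± 1.52 in the controls and 44.2% ± 3.84 in the 24h samples (SD, n = 3).

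Genes that work with the proteasome were read from a list of 20 further parts and cofactors, all tested. At 24h in total reads 2 rose and 1 fell, beside 7.11% and 7.85% of all genes. In total reads 15.0% of all genes passed, which is the background for each list in this paragraph. MIDN, midnolin, which delivers proteins to the proteasome without ubiquitin, rose by a log2 fold change of 0.49 ± 0.10 (adjusted p = 7.25e-05), and ZFAND5, an activator, by 0.20 ± 0.08. The shuttle factor UBQLN4 changed by -0.41 ± 0.11. In T>C reads MIDN alone of the 20 rose, by 0.55 ± 0.12 (adjusted p = 1.77e-04), where 4.98% of all genes passed. Of 7 genes around NRF1 (NFE2L1), the factor that raises proteasome genes when the proteasome is inhibited, NFE2L2 alone passed in total reads, at 0.30 ± 0.10. RPS27A, which encodes ubiquitin fused to a ribosomal protein, fell by 0.39 on the log2 scale (adjusted p = 0.00133). Of the 5 genes of the VHL ligase, VHL alone passed and fell by 0.24 (adjusted p = 0.0933). The median log2 fold change of these 5 was 0.18, with 0.34 for CUL2, 0.26 for ELOC and 0.18 for RBX1 (adjusted p of 0.147, 0.134 and 0.135).

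Promoters are shown for the genes that rose and fell most, PSMA2 and PSMG4. Exons of neighbouring genes were not looked for in these bases and may lie in them. Windows of 250 bases before each RefSeq gene start (GRCh38.p14) were searched, and 42 of the 48 genes had an entry. No entry was matched for PSMA7, PSMB1, PSMB6, PSMB7, PSMD4 and PSMG3. The motifs were CCAAT and TGACNNNGC, the core of the antioxidant response element to which NRF1 and NRF2 bind, on both strands. The bases printed end where the window first meets a GENCODE exon of the gene. They span chr7:42932186-42932424 (minus strand) for PSMA2 and chr6:3258697-3258896 (plus strand) for PSMG4. The GENCODE gene PSMG4 starts farther upstream, at chr6:3231403, so that exon is not its first. Capitals mark the CCAAT box of PSMA2, and PSMG4 holds neither motif.
PSMA2: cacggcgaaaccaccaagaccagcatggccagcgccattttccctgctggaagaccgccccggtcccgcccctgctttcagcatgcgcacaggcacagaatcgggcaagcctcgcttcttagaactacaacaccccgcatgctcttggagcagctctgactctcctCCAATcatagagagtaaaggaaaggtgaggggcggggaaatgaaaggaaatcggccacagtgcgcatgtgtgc
PSMG4: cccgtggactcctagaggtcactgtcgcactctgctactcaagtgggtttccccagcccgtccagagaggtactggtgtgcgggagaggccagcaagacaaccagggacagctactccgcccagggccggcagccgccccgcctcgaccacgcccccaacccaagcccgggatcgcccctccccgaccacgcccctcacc

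The core TGACNNNGC was found in 13 of the 42 genes (31.0%), beside 10.9% of 34961 promoters of the same length, and CCAAT in 19 (45.2%), beside 32.0%. The 42 genes have 51 entries, and a gene was counted where any of its entries held the motif. The background counts single promoters, so the rates of the genes are raised against it by genes with several entries. The core was held by 1 of the 8 genes that rose, PSMG2, by 1 of the 5 matched genes that fell, PSMC5, and by 10 of the 25 that were not called. RefSeq and GENCODE starts differ: the windows of PSMG4, PSMC5 and PSMG2 lie wholly inside the longer GENCODE gene and overlap its exons. The matches of PSMC5 and PSMG2 therefore lie downstream of another annotated start.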

How the data were processed

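The authors prepared 3′ end libraries (QuantSeq) from alkylated RNA and, per their methods, trimmed reads and processed them with slamdunk against hg38. They deposited a table of total read counts and a table of T>C read counts per gene, with 9 columns each and no normalization. From these, symbols were matched to GENCODE and RefSeq, and 18769 of 18970 were protein-coding. Those that reached 1 CPM in 3 or more samples were fitted over all 9 samples with DESeq2 1.42.0 (batch, 1 surrogate variable from sva 3.50.0, time; adjusted p under 0.1; no independent filtering). T>C against unconverted reads were tested with edgeR 4.0.16, as an interaction of read kind and time. CPM used the whole library, and changes per culture used log2 of normalized reads plus 1. The cultures pair the samples by design: each was sampled at every time. Deviations from the group means correlated within cultures at -0.06 to 0.61 over 9 pairs in total reads and 0.02 to 0.29 in T>C reads. Fits were tested on simulated data of independent samples without batch or culture effects. In total reads DESeq2 made more false calls there than its threshold allows and edgeR did not. The test of T>C against unconverted reads missed most share changes under 2-fold. The list of ubiquitin genes is not reported here in full. The members and lists were chosen with earlier results of these data known. Genes were named by level, T>C share, catalytic role and size of change. Alternatives were other normalizations, filters, tools, a replicate block, GC correction and leaving out each culture.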

Additional observations from a re-analysis of the deposited data

Results flagged for a closer look

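PSMA2 and PSMA6 were noted because their change after 24 h of dTAGV-1 differed from their change after 3 h, by the fitted contrast between both times. In total reads the difference was 0.37 on the log2 scale for PSMA2 and 0.25 for PSMA6, with DESeq2 adjusted p of 0.0383 and 0.0959. Both were higher at 24h than at 3h in 3 of 3 cultures, as were 19 of the 44 proteasome genes and 3167 of the 11710 genes tested. The 2 genes were flagged by this same contrast, so these values are no separate support.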

How the results depend on the processing

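At 24h against 0h in total reads, DESeq2 with TMM factors, no surrogate variable, other count filters, an adjusted p under 0.05, GC correction or the culture as a replicate block, and edgeR, called 10 to 18 proteasome genes against 15, and all 15 kept their sign. Over all genes these settings called 10.5% to 17.2%. The replicate block called 14, of which 12 were among the 15. PSMB7 (-0.27), PSMD14 (0.23) and PSMF1 (-0.26) were lost. With 1 culture left out 0 to 8 were called (0 to 15 without the surrogate variable). Over all genes these fits called 0.547% to 6.73% (2.60% to 11.2% without the surrogate variable). Without S9CC13_R6 the log2 fold change reversed for PSMA1 (-0.24), PSMA2 (-0.038), PSMB10 (0.13), PSMB2 (-0.041) and PSMB7 (0.095), and without S9CC47_R6 for PSMB10 (0.00091). Over the 3 fits PSMA1 ran from -0.24 to 0.68, PSMA2 from -0.038 to 0.61, PSMB10 from -0.68 to 0.13, PSMB2 from -0.041 to 0.33 and PSMB7 from -0.40 to 0.095. The cause was not tested, beyond the 1 residual degree of freedom of both fits. At 24h against 3h 2 genes were called. With edgeR, with TMM factors in DESeq2 or at an adjusted p under 0.05 it was 1 (3.88% to 5.68% of all genes). Without the surrogate variable 7 were called (7.69% of all genes) and at a filter of 1 count 8 (5.67%). The replicate block called 11 (13.2%), and GC correction with block 12 (11.2%). With any 1 culture left out 1 was called (0.786% to 1.63%), and 0 to 6 when the surrogate variable was also dropped (1.05% to 7.11%). PSMA2 reversed to -0.0056 without S9CC13_R6 and ran up to 0.63 without S9CC47_R6. At 3h against 0h 0 to 1 were called with 1 culture left out (0.102% to 1.32% of all genes). In T>C reads at 24h against 0h edgeR called 1 (8.04% of all genes), DESeq2 without the surrogate variable 1 (5.12%) and with the replicate block 2 (6.00%). GC correction with block called 1 (5.72%), and the fit without S9CC47_R5 and the surrogate variable 4 (3.46%). At 24h against 3h no surrogate variable gave 1 (3.10% of all genes), the block 2 (4.40%), and GC correction with block 1 (3.63%). The test of T>C against unconverted reads at 24h against 0h gave 1 with the replicate block (0.114% of all genes) and 1 at a filter of 1 count (0.303%). At 24h against 3h it gave 0 to 3 with 1 culture left out (0.0616% to 2.61%). The median log2 fold change of the proteasome genes in T>C reads moved to -0.086 for 3h over 0h and to 0.097 for 24h over 3h with size factors from total reads. At 24h against 0h it was -0.00094 with a mean count filter of 20, 0.039 with GC correction, 0.043 with GC correction and block, -0.042 to 0.040 with 1 culture left out, and 0.039 without S9CC47_R6 and the surrogate variable. At 24h against 3h it was 0.0041 to 0.070 with 1 culture left out. In total reads at 3h against 0h it was -0.046 with the block, -0.048 to -0.011 with 1 culture left out and -0.043 without S9CC13_R6 and the surrogate variable. From summed reads the T>C share of all proteasome genes rose by 0.44 percentage points at 24h, whereas the median over genes fell. The rise of SOX9 T>C reads at 24h over 3h missed the threshold with GC correction and block (0.23). It ran from 0.30 to 0.40 with 1 culture left out and passed only without S9CC47_R5, and when the surrogate variable was also dropped it missed it each time (0.34, 0.33 and 0.38). Genes of few T>C reads, PSMB10 first, are limited by depth.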
